A study of Rattus norvegicus with 47 samples.

Results

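The 9 genes described here belong to the circulating insulin-like growth factor system and were followed in rat liver. They were Igfbp1, Igfbp2, Igfbp3 and Igfbp4, which encode IGF-binding proteins, Igf1 (insulin-like growth factor 1), Igfals (the acid-labile subunit that carries IGF in blood), Ghr (the growth hormone receptor), Socs2 (a feedback inhibitor of that receptor) and Stat5b (the transcription factor it activates). They were found by name: every probe set whose single platform gene symbol was one of these was taken, which gave 13 probe sets of the 31042 that were not controls and 9 of the 14217 named genes. Igf1 had 3 probe sets, Igfbp3 and Ghr had 2 each, and the others had 1. Where a gene had several, its highest probe set on average stands for it, and the others are given beside it. A probe set is a group of short probes for 1 transcript. All 13 passed the filter on low signal in each experiment, and a probe set was called where its limma adjusted p was under 0.05 over all probe sets of the experiment.

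The liver is the main source of circulating IGF1 and of the acid-labile subunit, and growth hormone drives the transcription of both through its receptor and STAT5B. IGF-binding proteins hold IGF1 in blood and set how much of it reaches its receptor. Igfbp1 is the binding protein that responds fastest to feeding: insulin represses it through FOXO factors, and fasting, glucocorticoids and stress raise it in liver.

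The study asked how vitamin A status and its active metabolite, all-trans-retinoic acid (RA), shape gene expression in the liver of female Sprague-Dawley rats aged 8 weeks. RNA of 1 liver was hybridised to each of 47 Affymetrix rat arrays, in 13 groups of 3 experiments. In the diet experiment, offspring of dams kept on a vitamin A-deficient purified diet received that diet from weaning with retinol at 0 mg/kg (deficient, 5 rats), 0.4 mg/kg (marginal, 7 rats), 4 mg/kg (adequate, 6 rats) or 100 mg/kg (supplemented, 2 rats). In the RA time course, rats raised on the deficient diet received about 100 µg of RA and were killed at 3, 6, 10 or 16 h (3, 3, 4 and 3 rats), or received vehicle and were killed at 0 h (3 rats). In the intravenous experiment, rats on a stock diet, whose food had been removed 16 h earlier, were anaesthetised with isoflurane and given about 25 µg of albumin-bound RA into the left common iliac vein. They were killed after 30, 60 or 90 min (3 rats each), or at 0 min after vehicle alone (2 rats). The array titles call the rats of 0 h and 0 min untreated. All rats were killed with carbon dioxide. Vehicle rats were killed at time 0 only, so RA, the time of day and the time since handling cannot be told apart in either RA experiment. Food was freely available in the diet experiment and the time course.

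The promoters of Igfbp1 and Igfbp2 are shown because these genes had the largest called changes among the members. Each sequence runs 5′ to 3′ on the gene's strand, from 250 bases before to 50 bases after the RefSeq gene start of the rat build GRCr8, and capitals mark a motif that was searched for.
Igfbp1 chr14:86261027-86261326 (+): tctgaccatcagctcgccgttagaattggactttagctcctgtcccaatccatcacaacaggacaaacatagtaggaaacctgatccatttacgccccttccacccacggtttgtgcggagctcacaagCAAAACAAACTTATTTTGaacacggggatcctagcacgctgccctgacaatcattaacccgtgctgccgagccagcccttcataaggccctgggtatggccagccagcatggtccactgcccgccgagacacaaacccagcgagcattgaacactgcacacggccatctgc
Igfbp2 chr9:81864561-81864860 (+): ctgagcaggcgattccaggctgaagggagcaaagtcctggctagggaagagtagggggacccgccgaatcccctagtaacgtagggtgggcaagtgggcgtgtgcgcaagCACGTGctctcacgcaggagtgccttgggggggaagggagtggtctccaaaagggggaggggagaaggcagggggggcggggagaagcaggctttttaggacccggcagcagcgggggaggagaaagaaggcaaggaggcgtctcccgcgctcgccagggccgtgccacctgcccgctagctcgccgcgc
The capitals in Igfbp1 are a pair of inverted CAAAACA-type sites, known in rat as the insulin response region of this promoter, at -121 to -104 from the start. CAAAACA itself, on either strand, was in 6.28% of 33469 rat promoter windows of this length. The Igf1 window carried it at -67 to -61 from the start used for that window. The paired form, CAAAACA followed after 4 bases by TATTTTG, is the known Igfbp1 sequence itself, so its presence there was fixed by the choice of motif; it was in 1 window, that of Igfbp1. The capitals in Igfbp2 are the E-box CACGTG at -140 to -135, which 6.42% of windows held. The STAT motif TTCNNNGAA (8.87% of windows) and the RA receptor direct repeat, AGGTCA again after 5 bases (0.00896%), were in 0 of the 8 member windows, and a single AGGTCA (16.2%) was in that of Igf1, on the opposite strand. Both strands were searched, and a match is a string of letters, not a shown binding site. Socs2 had no entry in the promoter table. The windows of Igf1 (from 24172282) and Igfals (from 14403600) lie inside these genes, which begin at 24169608 and 14397076. That of Ghr, to 54432325, also lies inside its gene, which begins at 54532595 on the minus strand. The Stat5b window, to 86276202, lies mostly inside its gene, which begins at 86276178 on the minus strand. The starts used for these windows were therefore not the outermost gene starts. Igfbp1 and Igfbp3 are neighbours on chromosome 14, at 86261277 to 86266344 and 86270208 to 86277944, and Stat5b neighbours Stat5a on chromosome 10, at 86205148 to 86276178.

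Signals are log2 values on a scale where 0 is the median of the array, so that a difference of 1 is a doubling. Between 5 and 3172 probe sets of an array lay at its floor value, and no member did. Hepatocyte markers were high in the 47 arrays, all labelled liver: their sum reached 13.2 on this scale, against at most 7.85 for Kupffer cell markers. Cyp26a1, the RA hydroxylase that RA induces, was called higher than vehicle at 3, 6 and 10 h (by 6.30, 8.67 and 6.29) and at 60 and 90 min (by 5.43 and 5.61). It was not called at 16 h (2.86, limma adjusted p = 0.0643) or at 30 min (3.05, limma adjusted p = 0.0696). Its 16 h arrays read 0.38, -2.71 and 4.16, against -0.89, -1.14 and -4.73 in vehicle rats of the time course. Of the 47 arrays, 6 correlated less with the rest of their experiment than the others did: RA 16 h replicates 1 and 2, deficient replicates 1, 2 and 5 and adequate replicate 5. At 16 h the median change of all probe sets tested was -0.39 under the deposited scaling and -0.06 after quantile normalization, and at 10 h it was -0.19. The split of calls moved with that scaling: the share of calls that were higher was 3.63% under the deposited scaling and 34.4% after quantile normalization at 16 h, 22.0% and 57.9% at 10 h, 56.8% and 71.1% at 60 min, 7.36% and 35.2% for deficient against adequate rats, and 25.3% and 48.4% for the second against the first run. Likewise it was 3.79% and 36.9% for 10 against 3 h, 3.42% and 27.2% for 16 against 3 h, 28.2% and 46.0% for 10 against 6 h, 2.95% and 24.4% for 16 against 6 h, 90.9% and 68.9% for 90 against 60 min, and 94.8% and 68.5% for marginal against deficient rats. In the diet experiment the arrays fell into 2 runs of identifiers, 12 in the first and 8 in the second, and the run was a covariate of the fit. In bulk liver RNA, fewer cells of a type and less RNA per cell cannot be told apart.

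**Figure D1:**
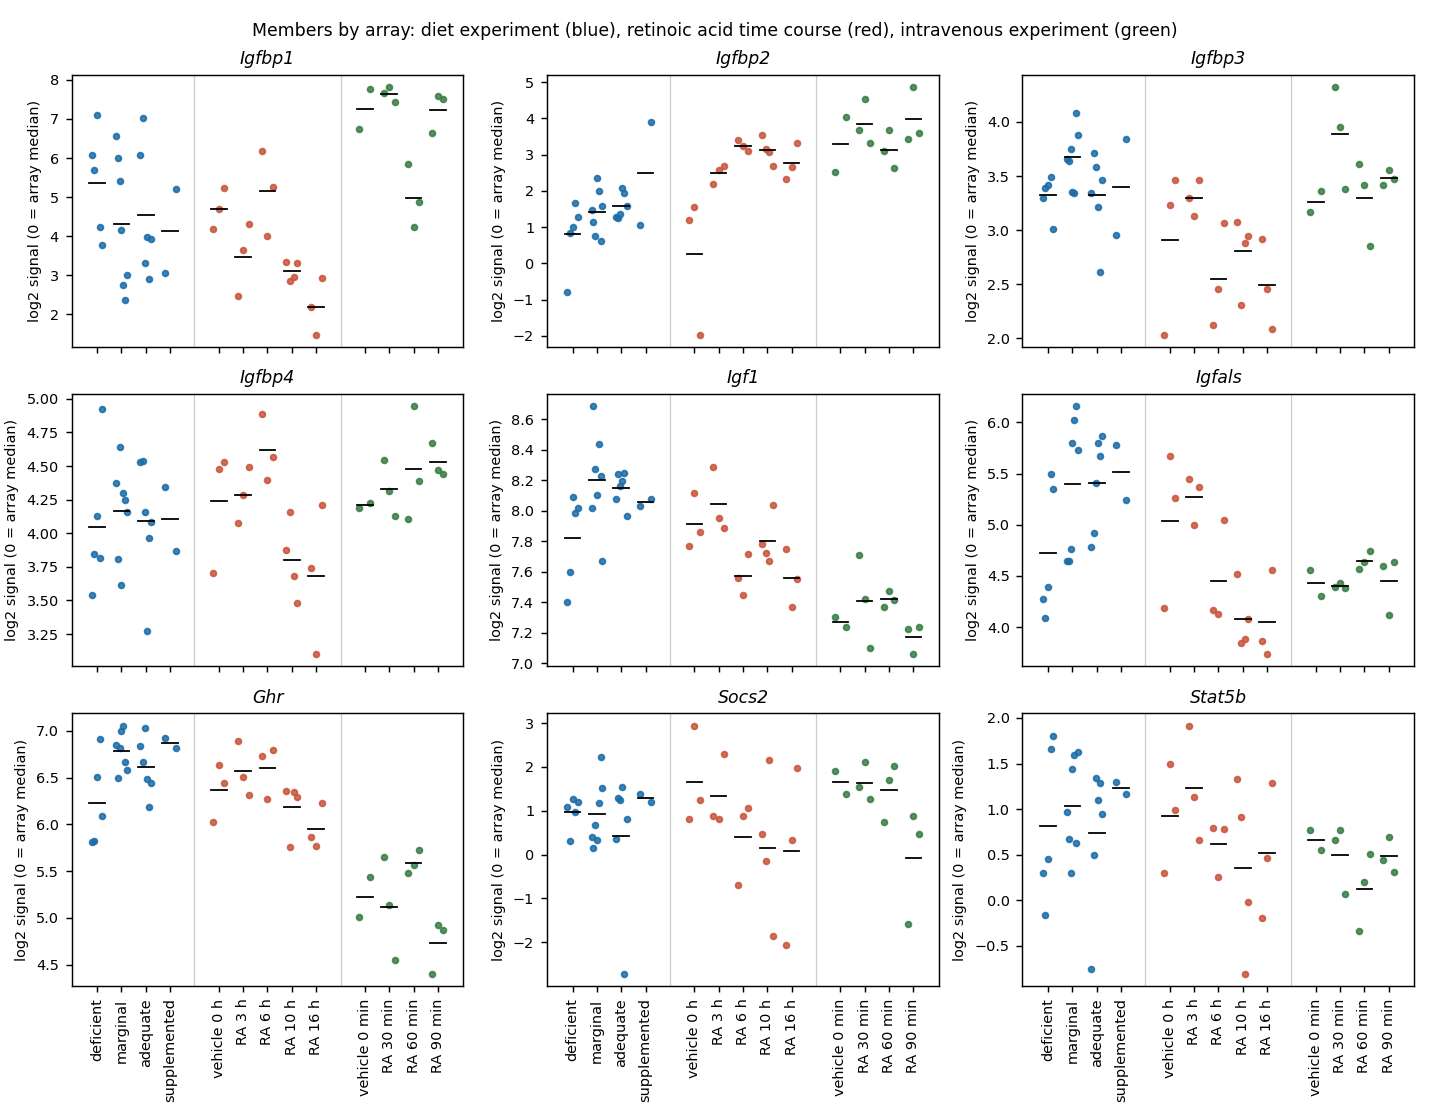
Log2 signal (0 is the array median) of the 9 members in every array, 1 panel per gene, with groups along the horizontal axis and the group mean as a line. Igfbp1 spans 1.48 to 7.82 over the arrays, while Igfbp2 sits between 2.20 and 3.54 in all arrays after RA in the time course and between -1.96 and 1.55 in the vehicle arrays.

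Igfbp2 rose after RA in vitamin A-deficient rats and stayed high to the last time. Its protein is a major IGF-binding protein of fetal blood and remains a liver product in adults, where fasting raises it. The signal was 1.21, 1.55 and -1.96 in the vehicle arrays at 0 h, then 2.20, 2.58 and 2.67 at 3 h, 3.40, 3.24 and 3.10 at 6 h, 3.54, 3.14, 3.08 and 2.70 at 10 h, and 2.32, 2.65 and 3.33 at 16 h. Every RA array lay above every vehicle array, and 1 vehicle array, replicate 3, lay far below the other two.

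Against vehicle, Igfbp2 was higher by 2.98 ± 0.51 at 6 h (SE, 7.91-fold, limma adjusted p = 0.00413), by 2.85 ± 0.48 at 10 h (7.21-fold, limma adjusted p = 0.00262) and by 2.50 ± 0.51 at 16 h (5.66-fold, limma adjusted p = 0.00615). At 3 h the difference was 2.22 ± 0.51 with a limma adjusted p of 0.122. Without vehicle replicate 3 the differences were 1.87, 1.74 and 1.39 at 6, 10 and 16 h, each still called, and at 3 h the difference was 1.11. No step between RA times was called for this gene. For 6 against 3 h and 16 against 10 h, 0 of the 9 members were called by limma (4 and 1 at an unadjusted p under 0.05), beside 0.0208% and 0.807% of all probe sets.

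Igfbp2 was the only member called against vehicle at 6 h, where 0.201% of all probe sets tested were called (0.118% higher), and at 10 h, where 0.488% were called (0.107% higher). At 3 h 0 of the 9 were called (2 at an unadjusted p under 0.05), beside 0.0762% of all probe sets. At 16 h, 3 of the 9 were called, 1 higher and 2 lower, beside 6.11% of all probe sets (0.222% higher and 5.89% lower). The median change of the 9 at 16 h was -0.42, beside -0.39 over all probe sets. With no intensity trend in the limma prior, 0 of the 9 member calls of the time course held, and Igfbp2 had adjusted p = 0.373, 0.269 and 0.156 at 6, 10 and 16 h.

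Igfbp1 fell by 16 h, to a mean of 2.20, against 4.71 in vehicle rats. The signal was 4.18, 4.70 and 5.24 in the vehicle arrays, 2.46, 3.65 and 4.30 at 3 h, 6.17, 4.01 and 5.26 at 6 h, 3.35, 2.85, 2.95 and 3.31 at 10 h, and 2.19, 1.48 and 2.93 at 16 h. All arrays of 10 and 16 h were below all vehicle arrays, and those of 6 h overlapped them.

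At 16 h Igfbp1 was lower than in vehicle rats (-2.51 ± 0.42 SE, 5.68-fold, limma adjusted p = 0.00131). At 10 h the change was -1.59 ± 0.39 with a limma adjusted p of 0.0617, and at 3 and 6 h it was -1.24 and 0.44, neither called. Within the treated rats, Igfbp1 was lower at 10 h than at 6 h (-2.04 ± 0.39, limma adjusted p = 0.0146), beside 0.135% of probe sets called there (0.0970% lower), and lower at 16 h than at 6 h (-2.95 ± 0.42, limma adjusted p = 0.000384), beside 1.76% (1.71% lower). It was the 1 member called in each of those comparisons. The call of 10 h against 6 h was lost when RA 6 h replicate 1 (-1.52) or 3 (-1.98), or RA 10 h replicate 2 (-1.95), 3 (-1.98) or 4 (-2.10), was left out. Relative to the median change of all probe sets, the 16 h changes were -2.11 for Igfbp1 and 2.89 for Igfbp2. With only the RA 16 h array that did not stand apart, taken to vary like the other groups, Igfbp1 changed by -1.77 (adjusted p = 0.179) and Igfbp2 by 3.06 (adjusted p = 0.0440).

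**Figure D2:**
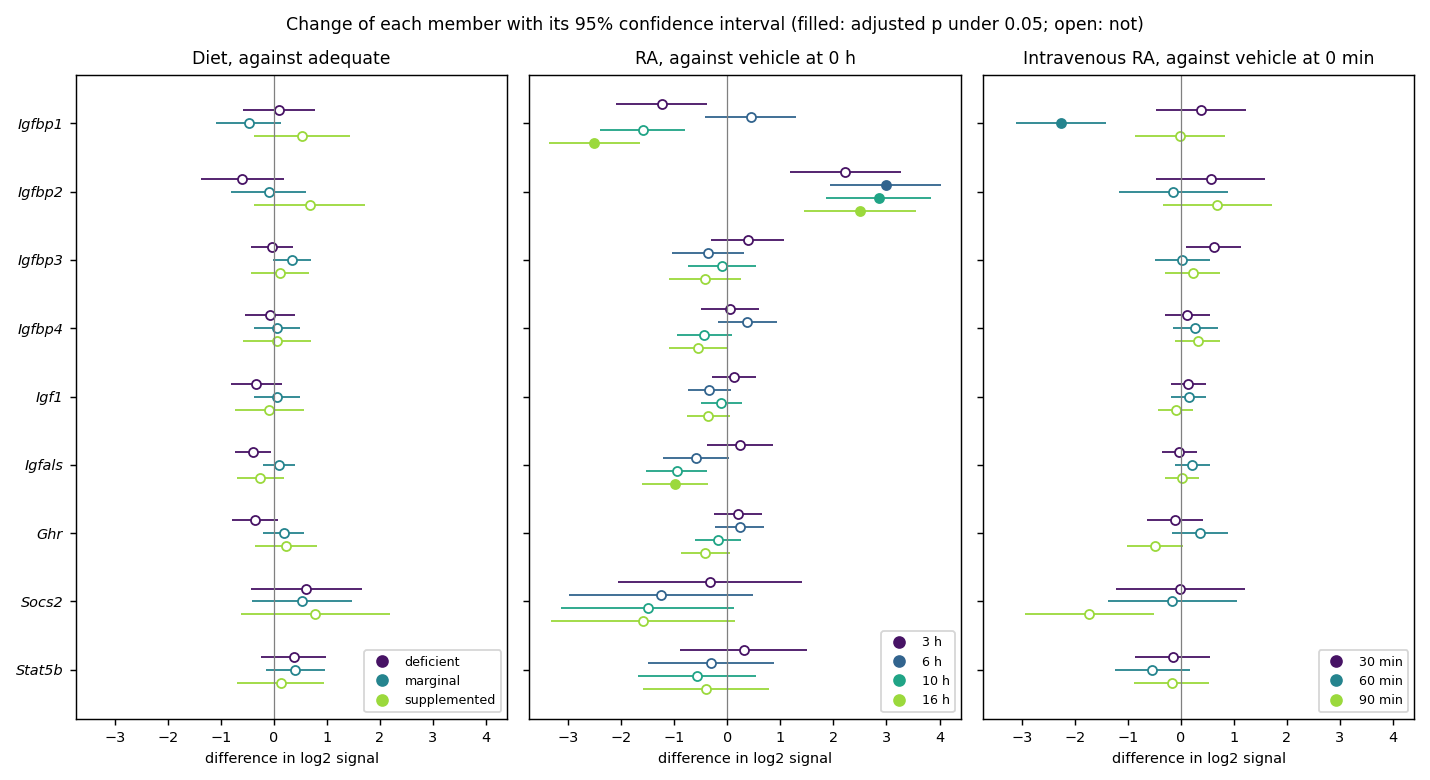
Change in log2 signal of each member, with a panel for each experiment: diets against adequate, and times of both RA experiments against vehicle. The horizontal axis is the change with its 95% interval, and genes are listed along the vertical axis. Colours mark diets or times, and filled points are called. The Igfbp2 points of the time course lie between 2.22 and 2.98, and the Igfbp1 points reach -2.51 at 16 h and -2.27 at 60 min.

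After intravenous RA in rats without food, Igfbp1 was the only member called at any time. Its signal was 6.74 and 7.77 in the vehicle arrays at 0 min, 7.67, 7.82 and 7.43 at 30 min, 5.86, 4.23 and 4.87 at 60 min, and 6.63, 7.58 and 7.50 at 90 min. The 60 min arrays lay below all others, and the 90 min arrays overlapped those of vehicle.

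At 60 min Igfbp1 was lower than in vehicle rats (-2.27 ± 0.40 SE, 4.82-fold, limma adjusted p = 0.0234), where 0.386% of all probe sets were called (0.167% lower). It was lower at 60 min than at 30 min (-2.65 ± 0.35, limma adjusted p = 0.00733, beside 0.0615% called and 0.0439% lower) and higher at 90 min than at 60 min (2.25 ± 0.35, limma adjusted p = 0.0232, beside 0.0966% called and 0.0878% higher). The change from vehicle was 0.39 at 30 min and -0.02 at 90 min, with a 95% interval at 90 min of -0.87 to 0.83. At 30 and 90 min 0 of the 9 members were called by limma (1 each at an unadjusted p under 0.05), beside 0.0878% and 0.505% of all probe sets, and for 90 against 30 min 0 were called (1 unadjusted), beside 0.250%. The 60 min call against vehicle was lost without vehicle replicate 2 (-1.75, limma adjusted p = 0.241), without 60 min replicate 2 (-1.89, limma adjusted p = 0.0610) or replicate 3 (-2.21, limma adjusted p = 0.0957), and with no intensity trend (limma adjusted p = 0.260). The 60 against 30 min call was lost without 30 min replicate 2 (-2.57) or 60 min replicate 3 (-2.60), and the 90 against 60 min call without 90 min replicate 2 (2.08) or 3 (2.12) or 60 min replicate 2 (1.87) or 3 (2.19). With no intensity trend, each of the 3 Igfbp1 calls was lost.

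Pdk4, which encodes a kinase that shuts off pyruvate dehydrogenase in fasting and is a FOXO target, showed the second highest correlation with Igfbp1 over the arrays once the mean of each experiment and diet run was removed (Pearson r = 0.63 over 47 arrays, among 11658 genes; Ing2 had 0.64 and Ciao1 0.60). Its intravenous signals were 5.84 and 6.19 in vehicle rats, 5.82 to 6.40 at 30 min, 2.96 to 4.02 at 60 min, and 4.85 to 5.87 at 90 min. It was lower at 60 min than in vehicle rats (-2.39, limma adjusted p = 0.00443) and higher at 90 min than at 60 min (1.82, limma adjusted p = 0.0224), and in the time course it was lower at 16 h than in vehicle rats (-1.51, limma adjusted p = 0.000389). Irs2, an insulin receptor substrate that FOXO factors also raise, was lower at 60 than at 30 min (-1.68, limma adjusted p = 0.00166). Its signals were 2.58 and 2.52 in vehicle rats, 3.40 to 3.85 at 30 min, 1.58 to 2.26 at 60 min and 1.63 to 2.06 at 90 min. Irs2 was not called against vehicle at 60 min.

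**Figure D3:**
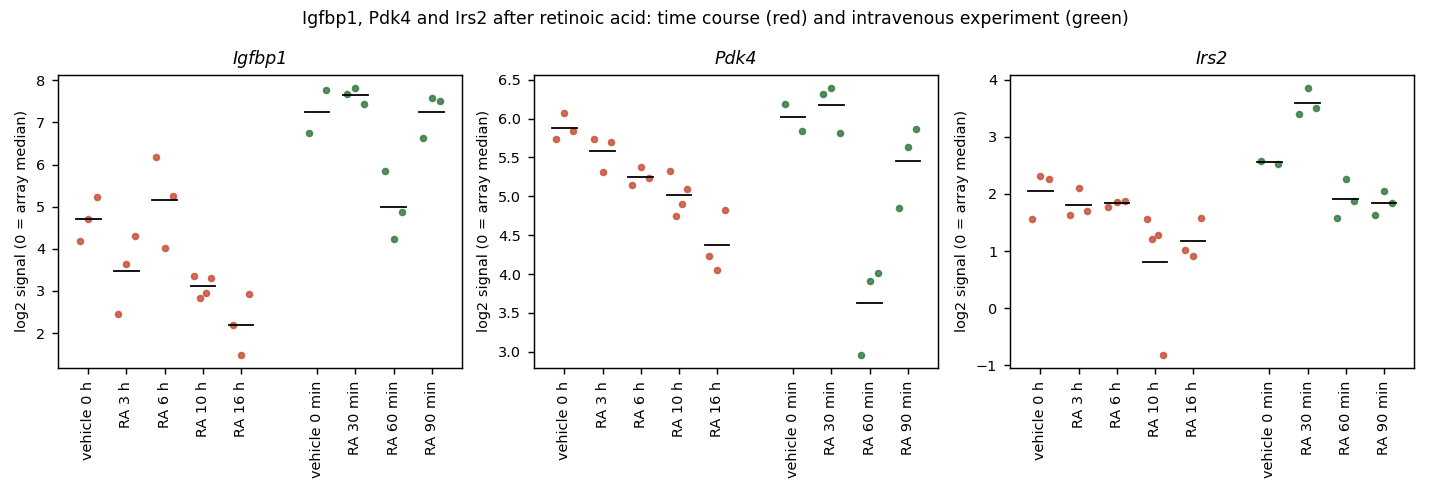
Log2 signal (0 is the array median) of Igfbp1, Pdk4 and Irs2 in each array of the RA time course (red) and the intravenous experiment (green), with group means as lines. Igfbp1 and Pdk4 both sit lowest at 60 min within the intravenous experiment and lowest at 16 h within the time course, and Irs2 remains at 1.63 to 2.06 at 90 min.

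Among the other 12 measured fasting and FOXO response genes, Klf15 was called higher at 60 min (1.13) and no gene besides Pdk4 was called lower. Of 15 clock genes tested there, 4 were called higher and 2 lower, with Npas2 at -3.36, Dbp at 2.99, Per2 at 2.24 and Bhlhe40 at 1.90, beside 0.386% of all probe sets called. These genes follow the time of day, and their part in the Igfbp1 change was not tested. At 60 min 0 of the 18 insulin and IGF receptor genes tested were called by limma (3 at an unadjusted p under 0.05), and 0 of the 15 growth hormone receptor genes (2 unadjusted).

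Igfals, which growth hormone induces in hepatocytes, had signals of 4.19, 5.67 and 5.26 in vehicle rats, 5.45, 5.00 and 5.37 at 3 h, 4.17, 4.13 and 5.04 at 6 h, 4.52, 3.85, 3.88 and 4.08 at 10 h, and 3.87, 3.74 and 4.56 at 16 h. The 16 h and vehicle arrays overlapped through vehicle replicate 1, and the 10 and 16 h arrays were all below the 3 h arrays.

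At 16 h Igfals was called lower than in vehicle rats at the edge of the threshold (-0.98 ± 0.30 SE, 1.98-fold, limma adjusted p = 0.0484). It was also called lower at 10 h than at 3 h (-1.19 ± 0.28, limma adjusted p = 0.0499), beside 0.457% of probe sets (0.440% lower), and lower at 16 h than at 3 h (-1.22 ± 0.30, limma adjusted p = 0.0123), beside 8.70% (8.41% lower). In both comparisons it was the 1 member called. The first of these was lost in 9 of 16 omissions of a single array, and the second without RA 3 h replicate 1 (-1.13) or 3 (-1.17) or RA 16 h replicate 1 (-1.12) or 2 (-1.06). The call against vehicle was lost in 13 of 16 omissions of a single array, all but RA 6 h replicate 3, RA 16 h replicate 3 and vehicle replicate 1, with values of -1.41 to -0.67. After quantile normalization the 16 h change was -0.37 (adjusted p = 0.452), and relative to the median of all probe sets it was -0.59. Srpra, a subunit of the receptor that docks secreted proteins at the endoplasmic reticulum, followed Igfals most closely (r = 0.86 over 47 arrays), then Cald1 (0.82) and Ganab (0.81).

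The probe sets of Igf1, Ghr and Igfbp3 did not give the same answer at 16 h. For Igf1 the highest probe set, 1370333_a_at, read 7.75, 7.37 and 7.55 at 16 h, against 7.77, 8.12 and 7.86 in vehicle rats, a change of -0.36 that was not called (limma adjusted p = 0.303). Probe set 1382599_at read 4.17, 4.20 and 4.90 at 16 h, against 5.04, 6.25 and 5.88 in vehicle rats, with no overlap and a called change of -1.30 ± 0.27 (limma adjusted p = 0.00615). Probe set 1388469_at read 6.61, 6.64 and 7.02 at 16 h, against 7.22, 7.94 and 7.71 in vehicle rats, also without overlap (-0.86 ± 0.22, limma adjusted p = 0.0204).

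For Ghr, 1373803_a_at read 5.86, 5.76 and 6.22 at 16 h, against 6.02, 6.64 and 6.45 in vehicle rats (-0.42, limma adjusted p = 0.284). The second Ghr probe set, 1368924_at, read 2.30, 2.34 and 3.72 at 16 h, against 3.36, 4.47 and 4.39 in vehicle rats (-1.29 ± 0.32, limma adjusted p = 0.0184). Against 3 h, where it read 4.93, 4.83 and 4.91, the second probe set was lower at 16 h (-2.11, limma adjusted p = 0.000223) and at 10 h (-1.32, limma adjusted p = 0.0365). The 16 h call against 3 h was lost without the arrays that stood apart (-1.17, or -0.81 after quantile normalization) and with no intensity trend. The 10 h call was lost in 6 of 16 omissions of a single array, with no trend, after quantile normalization (-0.94) and with the replicate number as a block (-1.18). The 2 low arrays at 16 h were those that stood apart, and without them the change from vehicle was -0.36 (adjusted p = 0.839). Prlr, the prolactin receptor, which uses the same kinase and STAT5, was most like Ghr over the 47 arrays (r = 0.84).

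For Igfbp3, whose protein forms the main circulating complex with IGF1 and the acid-labile subunit, 1367652_at read 2.92, 2.46 and 2.09 at 16 h, against 2.04, 3.23 and 3.47 in vehicle rats (-0.42, limma adjusted p = 0.509). The second Igfbp3 probe set, 1386881_at, read 2.05, 2.19 and 1.78 at 16 h, against 2.20, 3.71 and 3.42 in vehicle rats (-1.11 ± 0.33, limma adjusted p = 0.0426). In liver this gene is made largely outside hepatocytes. Kupffer cell markers summed to 6.15 to 6.69 at 16 h, against 7.00 to 7.31 in vehicle rats, and 3 of 9 were called lower (C1qb, Cd5l and Clec4f, by 0.73 to 1.06 in size), beside 5.89% of all probe sets. Sinusoidal endothelial markers summed to 5.93 to 6.40 at 16 h, against 6.22 to 6.95 in vehicle rats, and 2 of 9 were called lower. The part of these cells in the Igfbp3 value was not tested. After quantile normalization, the 16 h calls of the second Ghr and Igfbp3 probe sets were lost (adjusted p = 0.141 and 0.444), and those of both lower Igf1 probe sets held at 0.0498 and 0.0374. Without the RA 16 h arrays that stood apart none of these 4 calls held. Leaving out vehicle replicate 2 alone ended all 4, at -1.04 and -0.70 for the lower Igf1 probe sets, -1.09 for Ghr and -0.81 for Igfbp3. The call of Igf1 1388469_at and that of Ghr were also lost without vehicle replicate 3 or RA 16 h replicate 1 or 2, and that of Igfbp3 in 12 of 16 omissions.

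**Figure D4:**
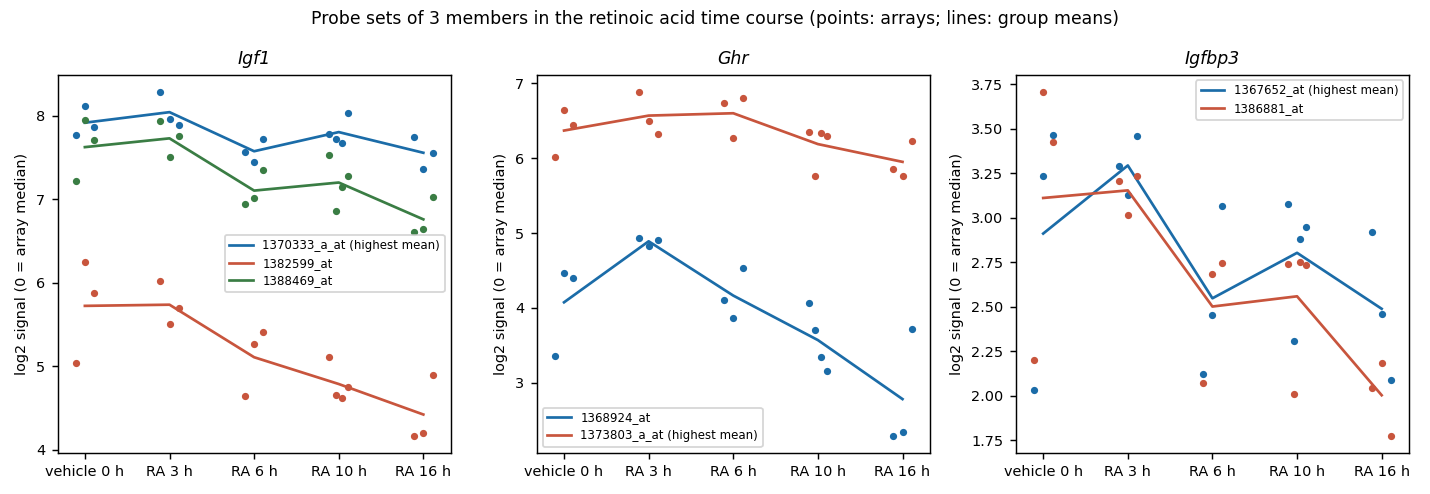
Log2 signal (0 is the array median) of each probe set of Igf1, Ghr and Igfbp3 in the RA time course, with points for arrays and lines for group means. The probe sets named as having the highest mean change least at 16 h, by -0.36 for Igf1 and by -0.42 for Ghr and for Igfbp3, and the others by -0.86 to -1.30.

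Igfbp4, Socs2 and Stat5b were called in no RA comparison. Igfbp4, a binding protein that holds IGF1 back from its receptor, averaged 4.62 ± 0.25 at 6 h and 3.68 ± 0.56 at 16 h, against 4.24 ± 0.46 in vehicle rats (SD, n = 3 each), and its 16 h change of -0.55 became 0.06 after quantile normalization. Socs2 varied widely between rats of a group: it read -2.06 to 1.97 at 16 h, against 0.81 to 2.94 in vehicle rats (-1.58, limma adjusted p = 0.283). In the intravenous experiment Socs2 read -1.58, 0.88 and 0.46 at 90 min, against 1.91 and 1.38 in vehicle rats (-1.73, limma adjusted p = 0.268). Stat5b lay between -0.80 and 1.91 over all arrays of the time course and overlapped between every treated group and vehicle.

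Neither Igf1 nor Ghr was called after intravenous RA. Igf1 read 7.71, 7.42 and 7.10 at 30 min, 7.37, 7.47 and 7.42 at 60 min, and 7.22, 7.06 and 7.24 at 90 min, against 7.30 and 7.24 in vehicle rats. The Igf1 change from vehicle had a 95% interval of -0.18 to 0.48 at 60 min and of -0.43 to 0.23 at 90 min. Ghr averaged 5.11, 5.59 and 4.73 at the 3 times, against 5.22 in vehicle rats, with no call. Igfbp2 averaged 3.84, 3.14 and 3.97 at those times, against 3.28 in vehicle rats, where the 2 arrays read 2.52 and 4.04; at 60 min the 95% interval of its change was -1.17 to 0.88.

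At 16 h in the time course, some other genes of the axis were called, where 6.11% of all probe sets were (0.222% higher and 5.89% lower). Of 10 other IGF-binding and carrier genes 2 were called lower, Htra1 (-1.11) and Igfbp7 (-0.96), and of 18 insulin and IGF receptor genes 2 were called lower, Trib3 (-2.07) and Pdpk1 (-0.99). Of 16 growth hormone receptor genes Stat3 alone was called (-1.41). Among 17 sex-patterned growth hormone targets, Cyp2c7, a female-predominant enzyme in rat, was called higher (1.41), and Cyp2c11 (-1.55), Onecut1 (-1.36), Serpina3n (-1.14) and 1 other were called lower. Of 13 fasting and FOXO response genes 3 were called lower, Pdk4, Angptl4 (-1.34) and Cpt1a (-1.03). The medians were -0.56 for the other IGF-binding genes, -0.82 for the insulin and IGF receptor genes, -0.41 for the growth hormone receptor genes and -0.65 for the fasting genes, beside -0.39 over all probe sets.

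Of 16 clock genes 4 were called lower at 16 h, led by Nfil3 (-2.14), Npas2 (-2.06) and Bmal1 (-2.03), and 2 of 13 glucocorticoid-induced genes were, beside 5.89% of all probe sets. Their part in the Igfbp1, Igfbp2 and Igfals values was not tested. Lrat, the retinol-esterifying enzyme that RA induces, was the gene most like Igfbp2 over the 47 arrays (r = 0.71), ahead of Adss1 (0.63) and Rnase4 (0.61). Both Lrat (-4.18) and Igfbp2 (-1.96) had their lowest signal in vehicle replicate 3 of the time course, and the correlation was not recomputed without it.

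No diet comparison called the highest probe set of any of the 9 genes; a lower Igf1 probe set was called once. Deficient against adequate rats gave 0 member calls by limma (1 of 9 at an unadjusted p under 0.05), beside 1.08% of all probe sets. Marginal against deficient rats gave 0 (2 of 9 unadjusted), beside 1.69%, and supplemented against deficient rats gave 0 (1 of 9 unadjusted), beside 0.420%. Marginal against adequate rats gave 0 member calls and 0% of all probe sets, with 917 probe sets at an unadjusted p under 0.05. These 917 held 0 of the 9 highest member probe sets and 1 of all 13, Ghr 1368924_at (0.75, 95% interval 0.05 to 1.45). In adequate replicate 5 that Ghr probe set read 1.88, against 4.70 to 5.26 in the other adequate arrays. Supplemented against adequate rats gave 0 of 9, also unadjusted, beside 0.0109%, and supplemented against marginal rats gave 0 (1 unadjusted), beside 0.0109%.

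For Igf1 the means were 7.82 in deficient, 8.20 in marginal, 8.15 in adequate and 8.06 in supplemented rats. The deficient minus adequate change was -0.33, with a 95% interval of -0.81 to 0.16. A second Igf1 probe set, 1382599_at, was called higher in marginal than in deficient rats (0.71 ± 0.19, limma adjusted p = 0.0432), with means of 5.47 and 4.75, and this call was lost in 12 of 20 omissions of a single array and in 8 of 12 other alternatives, where the change was as low as 0.38 after quantile normalization. Igfals read 4.27, 4.09, 4.40, 5.50 and 5.35 in deficient rats and 4.78, 4.92, 5.41, 5.79, 5.67 and 5.87 in adequate rats. With the runs pooled these overlap. In the second run deficient arrays read 4.09 to 4.40 and adequate arrays 4.78 to 4.92. In the first run they read 5.35 to 5.50 and 5.41 to 5.87. The change, with run as a covariate, was -0.39 (95% interval -0.72 to -0.06, limma adjusted p = 0.297). Ghr differed by -0.36 (95% interval -0.79 to 0.08) and Igfbp1 by 0.10 (95% interval -0.58 to 0.77).

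Igfbp2 read -0.78, 0.84, 1.01, 1.68 and 1.29 in deficient rats and averaged 1.42, 1.58 and 2.48 in marginal, adequate and supplemented rats. In the first run, which held both supplemented rats, Igfbp2 averaged 1.48, 1.64, 1.74 and 2.48 in deficient, marginal, adequate and supplemented rats. Its supplemented minus deficient change was 1.27 (95% interval 0.15 to 2.39, limma adjusted p = 0.521), with the 2 supplemented arrays at 1.05 and 3.91. Its deficient minus adequate change was -0.59 (95% interval -1.38 to 0.19). Kupffer cell markers summed to 5.78 to 7.79 in deficient rats and to 6.74 to 7.48 in adequate rats. These ranges pool the runs, and over all diets the sums were 5.78 to 7.11 in the second run and 6.96 to 7.85 in the first.

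The sex-patterned targets of growth hormone did include called genes for diet. Cyp2a2, a male-predominant enzyme in rat, was higher in deficient than in adequate rats by 4.06 (limma adjusted p = 0.000324), while Cyp2c7 (-1.38) and A1bg (-1.17), both female-predominant in rat, were lower. These were 3 of 16 tested, beside 1.08% of all probe sets and 0 of 16 growth hormone receptor genes (1 at an unadjusted p under 0.05). The list of sex-patterned targets was chosen with earlier results of these data known, so its share of calls is a description. The part of growth hormone in these values was not tested. Of the 18 insulin and IGF receptor genes, Irs3 (-1.41) and Akt1 (-0.74) were called lower in deficient rats.

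Igfbp1 and Igfals differed between the 2 runs of the diet experiment. Igfbp1 ranged from 5.40 to 7.09 in the 8 arrays of the second run and from 2.37 to 5.21 in the 12 arrays of the first, and Igfals from 4.09 to 4.92 in the second and from 5.25 to 6.16 in the first. Neither gene's ranges overlapped. This comparison of runs was chosen after its values were seen, and each run holds deficient, marginal and adequate rats.

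Second run minus first run, Igfbp1 was higher by 2.77 ± 0.26 (SE, 6.82-fold, limma adjusted p = 7.72e-09), Igfals was lower (-1.09 ± 0.13, 2.13-fold, limma adjusted p = 4.79e-07) and Stat5b was lower (-1.12 ± 0.24, limma adjusted p = 0.00121). These 3 of 9 members stand beside 13.6% of all probe sets called (3.44% higher and 10.2% lower). Stat5b overlapped between runs, at -0.76 to 0.96 in the second and 0.63 to 1.80 in the first. Igf1 changed by 0.00 with a 95% interval of -0.37 to 0.38, but was called higher after quantile normalization (0.32, limma adjusted p = 0.00768). The labels do not say what the runs are. The arrays of the 2 runs also differed in their floor value, which was -4.46 to -3.32 in the second run and -5.71 to -5.30 in the first. At most 3172 probe sets of an array lay at the floor in the second run, and at most 429 in the first. The part of this difference in the run values of the members was not tested.

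**Figure D5:**
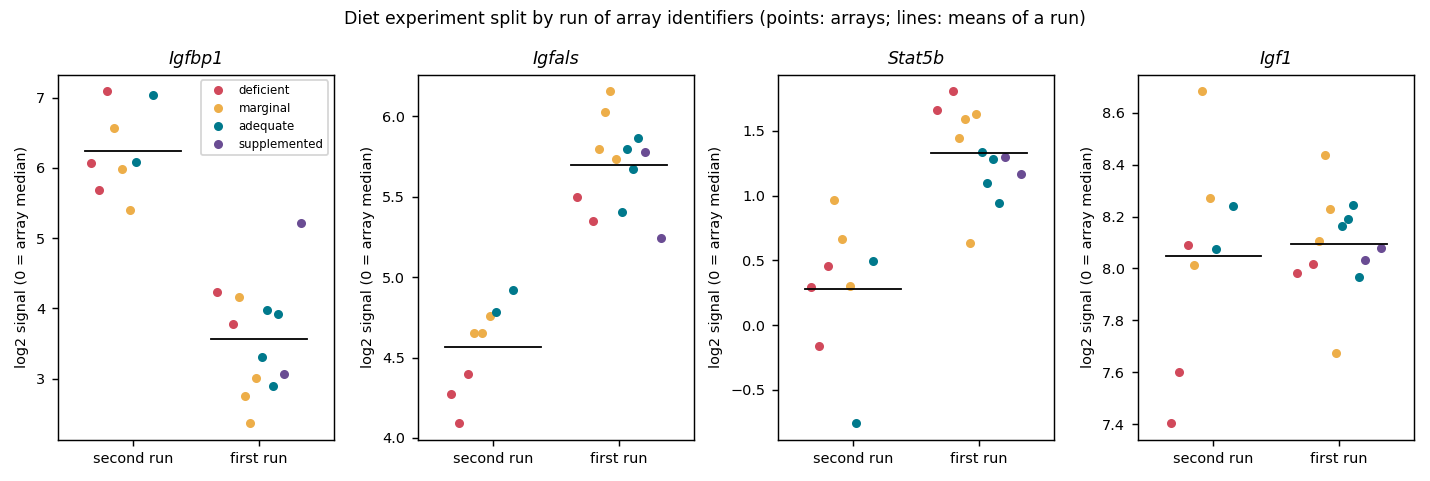
Log2 signal (0 is the array median) of Igfbp1, Igfals and other members in the 20 diet arrays, split by run (second run left of first) with diets in colour. For Igfbp1 the second run sits at 5.40 to 7.09 and the first at 2.37 to 5.21, and for Igfals at 4.09 to 4.92 and 5.25 to 6.16.

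Within each run the diet differences of Igfbp1 were small beside the run difference. Deficient minus adequate was -0.27 in the second run and 0.47 in the first for Igfbp1, -0.60 and -0.26 for Igfals, -0.71 and -0.04 for Ghr, -0.46 and -0.14 for Igf1, and -0.91 and -0.26 for Igfbp2, none of them called. Of 26 interactions of diet and run over the 13 probe sets, 0 were called by limma (1 at an unadjusted p under 0.05, lowest adjusted p 0.344), where 12 of 27601 probe sets were called for deficient against adequate rats.

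Some fasting and clock genes were also called between runs, where 3.44% of all probe sets were called higher and 10.2% lower. Klf15 (1.11), Pck1, the gluconeogenic enzyme (0.98), and Cpt1a, which admits fatty acids to mitochondria (0.86), were 3 of 13 fasting and FOXO response genes called higher in the second run, 0 were called lower and 10 were not called. Pdk4 was among those not called, and it read 3.71 to 5.92 in the second run and 4.61 to 5.52 in the first. Of 16 clock genes 4 were higher, led by Bhlhe41 (3.21), Dbp (3.08) and Per2 (2.20), and 3 were lower, among them Bmal1 (-1.10). Of 16 growth hormone receptor genes, Trim24 was higher (0.62) and 4 were lower, among them Jak2, the kinase of the growth hormone receptor (-1.34). Kupffer cell markers summed to 5.78 to 7.11 in the second run and 6.96 to 7.85 in the first, and 7 of 9 were called lower. The part of any of these in the run values of the members was not tested.

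Over all groups of an experiment, each member's group means were placed in order. Neighbours in such an order differ least by construction, so few calls between them were likely in advance. The counts are a description. In the diet experiment the order used means pooled over the runs, whereas the calls had run as a covariate. Of the neighbouring pairs in that order, 0 of 27 were called by limma in the diet experiment (2 at an unadjusted p under 0.05), 0 of 36 in the time course (3 unadjusted) and 1 of 27 in the intravenous experiment, that of 90 min over 60 min for Igfbp1. Among the members, after removal of experiment and run means, Igf1 followed Ghr (r = 0.53 over 47 arrays) and Igfals (r = 0.52). Igfbp2 and Igfals had r = -0.35 over the 47 arrays. That value was -0.10 in the diet experiment, -0.39 in the time course and -0.73 in the intravenous experiment. The genes most like the remaining members were Pon1 for Igf1 (r = 0.80), Prkaa2 for Igfbp3 (0.70), Ung for Igfbp4 (0.78), Siah2 for Socs2 (0.72) and Cstf1 for Stat5b (0.63). These arrays share groups and array quality, so the correlations are a description.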

How the data were processed

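Each of 47 livers gave RNA for its own single-colour array. The authors deposited log2 signals, made with GCOS per the submitters' processing notes (version not given), and the values show each array centred on a median of 0 with a floor. The number of arrays limits the precision. Of 31099 probe sets, 57 controls were left out; 20832 named 1 gene, 436 several and 9831 none.

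The members and lists were chosen with earlier results of these data known. An experiment's tests covered probe sets that exceeded the array's 40th percentile on 2 or more of its arrays (27601, 28869 and 22781). Each experiment was fitted with limma 3.58.1 in R 4.3.3 (group means, eBayes with an intensity trend; run of identifiers as covariate for diet), and a call is a Benjamini-Hochberg adjusted p under 0.05 over all probe sets tested. The limma steps were also run on simulated arrays with independent normal noise. These had no run covariate, low-signal filter, scaling shift or arrays that stood apart, so those features were not tested. Tables and figures used python 3.11.15. Text names the 9 members, Cyp26a1, up to 4 called genes of each list per comparison (the largest changes), and the 3 genes best correlated with each member; Irs2 and Pdk4 levels, and the comparison of runs, were chosen after their values were seen. An array stood apart where its median correlation with its experiment was over 0.025 below the usual.

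Labels give groups the same replicate numbers without saying that they pair. Deviations of same-numbered arrays had median correlations of at most 0.0274 in the 3 experiments, so no block was used. Alternatives were quantile normalization, no filter, a common floor, no trend, array weights, a 1.5-fold minimum, a replicate block, averaged probe sets, each array left out and, added after seeing the data, the arrays that stood apart left out. Promoters are from RefSeq (GRCr8; 8 of 9 members matched).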

Additional observations from a re-analysis of the deposited data

Results flagged for a closer look

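Of 52 sets of member values in groups of 4 to 10 arrays, 4 held 1 array far from the rest by Dixon's ratio. Chance gives about 1 in 20 where the values of a set come from 1 population. The diet groups pool the 2 runs, so that rate need not hold for them. In adequate replicate 5, which stood apart from its experiment, the Ghr probe set 1368924_at read 1.88, against 4.70 to 5.26 in the other adequate arrays, and Socs2 read -2.72, against 0.35 to 1.54. In RA 10 h replicate 2, the Ghr probe set 1373803_a_at read 5.76, against 6.29 to 6.36 in the other RA 10 h arrays, and the Igfbp3 probe set 1386881_at read 2.01, against 2.74 to 2.75.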

How the results depend on the processing

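Of 9 member calls in the time course, 9 held with a common floor, array weights and a 1.5-fold minimum, 7 without the filter, 6 after quantile normalization, 6 with probe sets averaged, 5 without the arrays that stood apart (also 5 after quantile normalization without them) and 0 with no intensity trend. Of 3 calls in the intravenous experiment, 3 held in each of these settings that applied there, except 0 with no trend, and the 3 run calls held in each. Numbers of members called, over the highest probe set of each gene, moved by more than 1.5 times as follows. With no trend they were 0 at 6, 10 and 16 h, for 10 against 6 h, 10 against 3 h, 16 against 3 h and 16 against 6 h, at 60 min, and for 60 against 30 and 90 against 60 min. With array weights they were 1 at 3 h, 3 at 10 h, 1 for 6 against 3 h, 2 for 16 against 3 h and 2 for 16 against 6 h. Without the arrays that stood apart, with or without quantile normalization, they were 2 at 10 h, 1 at 16 h and 0 for 16 against 3 h and 16 against 6 h, and after quantile normalization 1 for 6 against 3 h. Quantile normalization gave 5 for the runs, and 0 for 10 against 3 h and 16 against 3 h. No filter gave 0 for 10 against 3 h. Averaged probe sets gave 0 for 10 against 6 h and 10 against 3 h and 3 for 16 against 3 h. By 1.5 times or less, the 16 h count of 3 became 2 after quantile normalization, with no filter or with the block, and 4 with array weights, where Igfbp4 was called (-0.86, adjusted p = 0.0310). The causes were not tested. Ghr (1373803_a_at) was 0.34 under quantile normalization (adjusted p = 0.0172), against an uncalled -0.10 under the deposited scaling (second minus first run); Igf1 was also called there, and Igfbp4 was called at 0.59 (adjusted p = 0.00776) with quantile normalization and without the arrays that stood apart.

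Leaving out each array in turn, with a lone remaining array taken to vary like the other groups, gave 0 to 1 members called for supplemented against deficient rats, 0 to 2 for marginal against deficient, 0 to 1 at 3 h, 1 to 3 at 10 h, 2 to 5 at 16 h, 0 to 1 for 6 against 3 h, 0 to 1 for 10 against 6 h and 10 against 3 h, 0 to 4 for 16 against 3 h, 1 to 3 for 16 against 6 h, and 0 to 1 for each of 60 min against vehicle, 60 against 30 min and 90 against 60 min.

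With the replicate number as a block, 7 of 9 time course calls and 2 of 3 intravenous calls held; members called were 0 for 10 against 3 h, 2 for 16 against 3 h and 0 at 60 min, where Igfbp1 changed by -2.26 (adjusted p = 0.0614). The block gave 0 of 3 run calls; the second run holds replicate numbers 1 to 3 only. It changed no diet count. Of the arrays, 5 of 20, 7 of 16 and 4 of 11 correlated best with their own number.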
